A study of Mus musculus with 2 samples.

Results

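Near-complete A-ending sites are positions of N6-methyladenosine (m6A) calling at which at least 0.9 of the scored signal was called modified in each of 2 nanopore direct RNA libraries. A site was taken when the tables of both libraries listed the same position of the same transcript with 20 or more reads in each, its motif of 5 bases ended in A, and its fraction modified was 0.9 or more in each. Of 5221 positions shared at this depth, 2001 had the A-ending motif, and 409 of them, on 361 transcripts, met the rule. All but 2, which the tables list without a gene name, lie in 341 named genes. These are 20.4% of the A-ending sites and 7.83% of all shared sites. The fractions chose the sites, so their values are given here as a description, and no test was made on them. The other 1592 A-ending sites are the comparison.

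Both libraries were made from poly(A) RNA of wild-type mouse retinal organoids, tissue grown in culture from stem cells, of the line Rx:GFP, at day 6 of differentiation. All cells had been kept in AGN at 0.1 µM for 6 days. The libraries form 1 group (n = 2) with no second genotype, treatment or time, so no condition could be contrasted. They carry the same batch label, and nothing in the labels says that they came from separate cultures, so differences between them may be technical. The line is a single reporter line, in which green fluorescent protein follows Rx (Rax), and an organoid holds a mixture of cells. In bulk RNA of this kind, a fraction averages over all cells that express the transcript. Of 12 eye-field and retinal progenitor markers, 10 were listed in each library. No marker of pluripotent cells (0 of 9), endoderm (0 of 5), mesoderm (0 of 3) or neural crest (0 of 2) was listed, and of 3 markers of retinal pigment epithelium 1 was listed in replicate 1 and 2 in replicate 2. A gene was listed only where a motif was covered by at least 5 reads, so these counts are not expression levels.

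m6A is the most common internal modification of messenger RNA. A complex built on METTL3 and METTL14 writes it on the A of short motifs around a central GGAC or AGAC, the demethylases FTO and ALKBH5 can remove it, and YTH-domain proteins bind it and act on splicing, decay and translation. In general a given site is methylated in only some copies of a transcript, and sites are dense near stop codons and in long internal exons.

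The tables hold 4 motifs in DNA letters. They are AGACT and GGAC with a final A, C or T, so every A-ending site is a GGACA. Positions near transcript starts were laid on RefSeq promoter sequences. Of 142 positions up to 48 nt from the start, most (all but 35) had no match of their motif within 6 bases. Among the 35 with a match, 24 had the motif starting 3 bases before the listed end. In those 24 the listed position is base 4 of the motif, the C that follows the methylated A. The 3 A-ending positions below show that arrangement in the first bases of the RefSeq transcripts (GRCm38.p6), with the motif in capitals and read 5′ to 3′ on the strand of the gene. Brk1 encodes a subunit of the WAVE actin-nucleation complex, Alyref an mRNA export adaptor and Yif1a a protein of traffic between the endoplasmic reticulum and the Golgi. The printed stretch of Brk1 lies at chr6:113604772-113604801 on the plus strand. That of Alyref lies at chr11:120598316-120598337 on the minus strand and that of Yif1a at chr19:5088569-5088587 on the plus strand.
Brk1 position 17: ggccgccatggcgGGACAagaggatccggt
Alyref position 45: tggccgacaaaatGGACAtgtc
Yif1a position 48: ggcggccgcgatcGGACAg
None of the 3 is a near-complete site. The fraction was 0.768 and 0.763 at Brk1, over 97 and 169 reads in replicates 1 and 2, and 0.5 and 0.268 at Alyref, over 55 and 133 reads. At Yif1a it was 0.933 and 1, but only 15 and 30 reads covered the position, short of the minimum in replicate 1.

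A second set of sequences is shown because the near-complete sites stood apart there from other A-ending sites. It holds GGACA motifs followed within 4 to 6 nt by another listed motif. The letters were joined from the listed motifs themselves, with the first GGACA in capitals and n for a base that no listed motif covers. For each arrangement 1 example is given, with the positions of both sites on its transcript.
Rtl8b 871 and 875: GGACAgact
Rpl7a 191 and 196: GGACAggaca
Idh3g 1298 and 1303: GGACAggacc
Stard7 1543 and 1549: GGACAnggaca
Sf3b1 3652 and 3658: GGACAnggacc
Glyr1 2156 and 2162: GGACAnagact
The first site of every pair but that of Glyr1 was near-complete, and the values are given below with the neighbouring sites.

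At the 409 near-complete sites the median fraction modified was 0.968 in replicate 1 and 0.965 in replicate 2. At the other A-ending sites it was 0.571 and 0.551. The fraction was exactly 1 in both replicates at 40 near-complete sites. The lower of both fractions formed a rising tail at the A-ending motif: 180 sites lay between 0.7 and 0.8, 295 (14.7%) between 0.8 and 0.9, and 409 at 0.9 or above, while each lower bin of 0.1 held 120 to 180 sites. The other 3 motifs ran the other way, with 884 of 3220 sites (27.5%) below 0.1 and 80 (2.48%) at 0.9 or above. Those 80 comprised 10 of 816 AGACT sites (1.23%), 27 of 1162 GGACC sites (2.32%) and 43 of 1242 GGACT sites (3.46%). Over all motifs, 489 sites (9.37%) met the same fraction minimum.

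**Figure D1:**
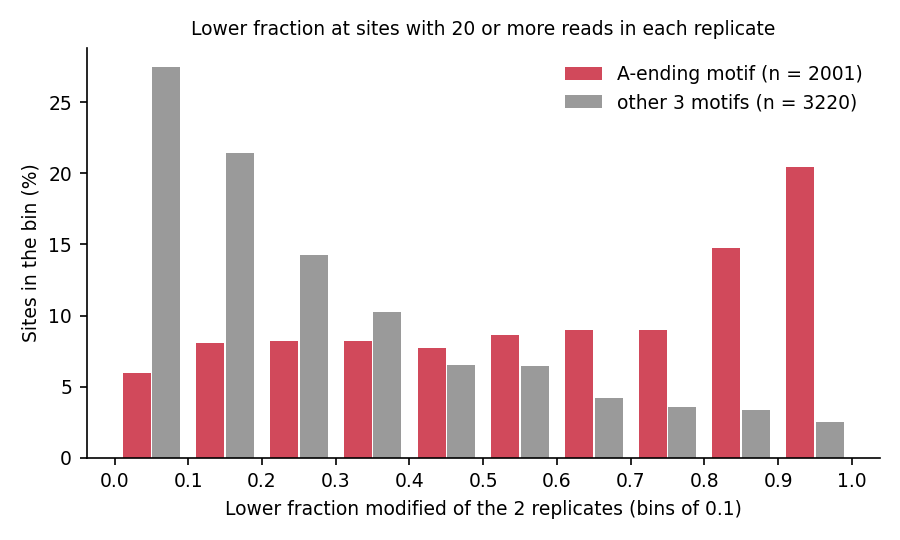
The percentage of sites in each bin of 0.1 of the lower fraction modified of the 2 replicates is drawn for the A-ending motif (2001 sites) and for the other 3 motifs together (3220 sites). The A-ending bars are highest in the last bin (20.4%), the others in the first (27.5%).

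The near-complete sites were as deep as the other A-ending sites. Median coverage was 37 reads in replicate 1 and 80 in replicate 2, against 37 and 79 at the other A-ending sites, and the ratio of the libraries was a median of 2 and 2.02. By the lower of both coverages, the near-complete share was 21.2% of 726 A-ending sites at 20 to 29 reads, 18.2% of 559 at 30 to 49, 21.9% of 424 at 50 to 99 and 20.5% of 292 at 100 or more. In all, 153 near-complete sites had 50 or more reads in each replicate.

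Since the rule used both replicates, the choice was also made in each replicate alone and read in the other. Of 535 A-ending sites at 0.9 or above in replicate 1, 409 (76.4%) were also at 0.9 or above in replicate 2, where their median was 0.9496 and the lowest value 0.612. Of 482 sites chosen in replicate 2, 409 (84.9%) were at 0.9 or above in replicate 1, with a median of 0.96 and a lowest value of 0.429. These shares were lowest at 20 to 29 reads, at 71.6% and 82.8%, and highest at 100 or more, at 89.6% (60 of 67) and 92.3% (60 of 65). Sites read at 0.8 to 0.9 in the choosing replicate reached 0.9 in the other less often, at 63 of 270 (23.3%) and 101 of 296 (34.1%). The deepest sites thus changed sides least.

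**Figure D2:**
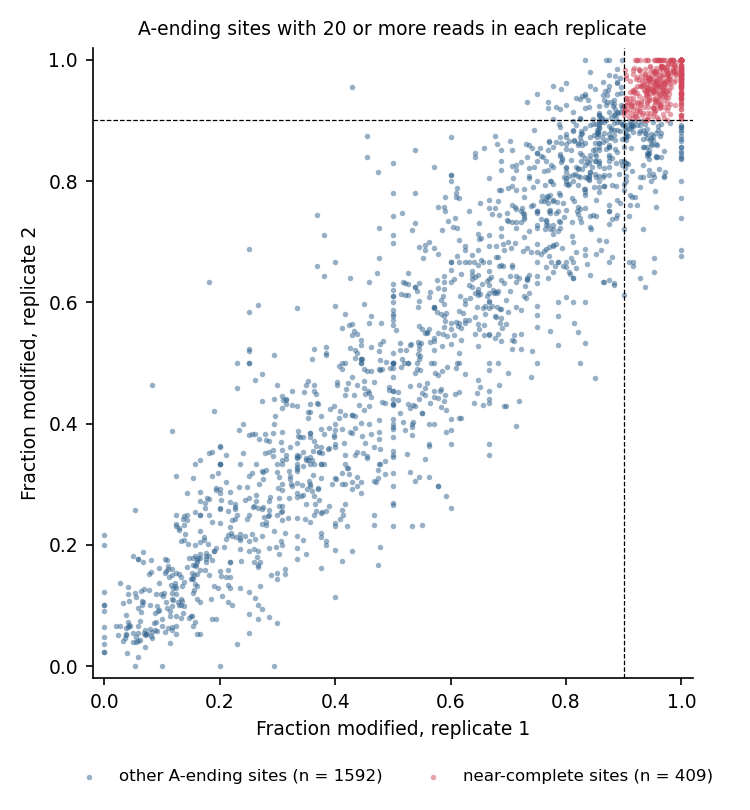
Each point is 1 A-ending site with 20 or more reads in each replicate, placed by its fraction modified in replicate 1 (horizontal axis) and replicate 2 (vertical axis), with dashed lines at 0.9. The 409 near-complete sites fill the upper right corner, and 1592 other sites spread along the diagonal.

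The values nearest the minimum differed little across it. Among sites with 50 or more reads, the near-complete sites closest to it were in Eif5a (position 557, 0.9 and 0.908 over 441 and 743 reads), Mrpl51 (179, 0.902 and 0.984), Acat2 (621, 0.902 and 0.917), Impdh2 (922, 0.904 and 0.937) and Rab2a (832, 0.905 and 0.938). Just outside were sites of the histone gene H3f3a (741, 0.912 and 0.8996 over 1619 and 2884 reads), Ndufb2 (319, 0.920 and 0.899), H1f0 (1208, 0.930 and 0.8985), Kars (1780, 0.898 and 0.923) and Prdx4 (286, 0.897 and 0.920).

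The deepest near-complete sites lay in transcripts of the translation machinery. Rps24, a protein of the small ribosomal subunit, had 0.963 over 1652 reads and 0.942 over 2535 at position 527 of ENSMUST00000169826.1 (chromosome 14, 24537193 to 24547027, gene coordinates here and below as deposited, with no build named in the tables). Rack1, a scaffold protein bound to the small subunit, was lower, at 0.913 and 0.925 over 1546 and 2582 reads (position 617; chromosome 11, 48691159 to 48697261). Rpl8, of the large subunit, had 0.944 and 0.940 over 1340 and 2193 reads at position 267 (chromosome 15, 76788278 to 76790514). Rpl9 had 0.963 and 0.961 over 1224 and 1899 reads at position 459 (chromosome 5, 65545707 to 65548787). Ribosomal protein genes have many processed copies in the genome, and how reads shared with such copies were assigned is not given in the sources used here, so the source gene of these reads is uncertain.

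Rpl7a carried 2 near-complete sites 5 nt apart, at positions 191 (0.985 and 0.981 over 1170 and 1999 reads) and 196 (0.906 and 0.930 over 1170 and 2003 reads) of ENSMUST00000102898.4 (chromosome 2, 26800776 to 26803330). The first of the pair was higher in both replicates. Outside the ribosome, Hsp90ab1, the constitutive cytosolic HSP90 chaperone, had 0.966 over 691 reads and 0.974 over 1564 at position 1901 of ENSMUST00000024739.13 (chromosome 17, 45878701 to 45884197). Marcksl1, a membrane and actin-binding relative of MARCKS, had 0.963 and 0.937 over 577 and 1230 reads at position 862 of ENSMUST00000062356.6 (chromosome 4, 129407374 to 129409778). It had a second near-complete site at position 334, with 0.995 and 0.980 over 400 and 863 reads. Ran, the GTPase of nuclear transport, had 0.920 and 0.910 over 548 and 929 reads at position 187 (chromosome 5, 129097133 to 129101387).

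Among the 40 sites with a fraction of 1 in both replicates, none was as deep as these. The deepest were in Nip7, a factor of large-subunit assembly (position 145, 65 and 116 reads), Cuedc2 (765, 58 and 88 reads), Ndufa9, a subunit of respiratory complex I (646, 58 and 113 reads), Hspa9, the mitochondrial HSP70 (1985, 40 and 136 reads), and Tmem97 (518, 38 and 75 reads).

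Most transcripts with a near-complete site had 1 of them (316 of 361), 42 had 2, and Rtl8b, Mcm2 and Apip had 3. In Mcm2, a subunit of the replicative helicase (ENSMUST00000058011.7; chromosome 6, 88860456 to 88875762), the sites lay at position 754 (0.923 and 0.971), 1918 (0.941 and 0.901) and 2731 (1 and 0.992, over 59 and 128 reads). The remaining A-ending site of Mcm2, at position 2698 and so close to the last, was at 0.467 and 0.25. Apip, an enzyme of methionine salvage, had its sites at 89 (0.938 and 1), 170 (0.917 in both) and 501 (1 in both), over 21 to 29 reads, and these were all of its shared A-ending sites. Pairs of near-complete sites on deeply read transcripts were found in Atp5a1, the alpha subunit of ATP synthase (1496 and 2175), Nt5dc2 (593 and 1350), the ubiquitin-conjugating enzyme Ube2n (601 and 1011), Impdh2, an enzyme of guanine nucleotide synthesis (922 and 1595), and Shisa2, a developmental regulator of Wnt and FGF receptor maturation (1091 and 2649). The fractions at these 10 sites ran from 0.904 to 0.990.

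Near-complete and other A-ending sites occurred on the same transcripts. Of the 361 transcripts, 201 had another shared A-ending site, and on 186 of them at least 1 was not near-complete. Both the 299 such sites and the 1293 A-ending sites of transcripts with no near-complete site exclude near-complete ones by definition. Their median fractions were 0.583 and 0.592, and 0.571 and 0.542, and nothing is read from their likeness. On 37 transcripts a near-complete site was listed together with an A-ending site at 0.2 or below in both replicates. These were 40 weak sites in all (13.4% of the 299, against 10.9% of the 1293). Sites on 1 transcript can share reads and are not independent, but no read was followed from 1 site to another.

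The examples here were chosen after their values were seen, for depth and size. In Eif5a, a translation factor, position 557 stood at 0.9 and 0.908 and position 1220 at 0.102 and 0.116 over 447 and 749 reads. Cnn3, an actin-binding calponin, had 0.954 and 0.957 at position 1527 and 0.0976 and 0.118 at position 228. Scd2, a fatty acid desaturase, had 0.963 and 0.921 at position 3946 and 0.0698 and 0.0542 at position 4365. The choice of pairs fixed a wide gap between the sites, so its size is a description.

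Tead2, a transcription factor of the Hippo pathway, had near-complete sites at 136 (0.955 and 0.977) and 1698 (0.967 and 0.989). Between them lay A-ending sites at 1328 (0.0580 and 0.0552) and 1667 (0.302 and 0.294), the latter close to the second near-complete one. The difference between positions 1698 and 1328 was 0.921 ± 0.0170 (SD, n = 2). Vim, the intermediate filament protein of neural progenitors, had 0.990 and 0.966 at position 1837 over 431 and 827 reads and 0.235 and 0.212 at position 1560. Hsp90ab1 had A-ending sites at 303 (0.713 and 0.634) and 1197 (0.338 and 0.347) beside its near-complete site.

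**Figure D3:**
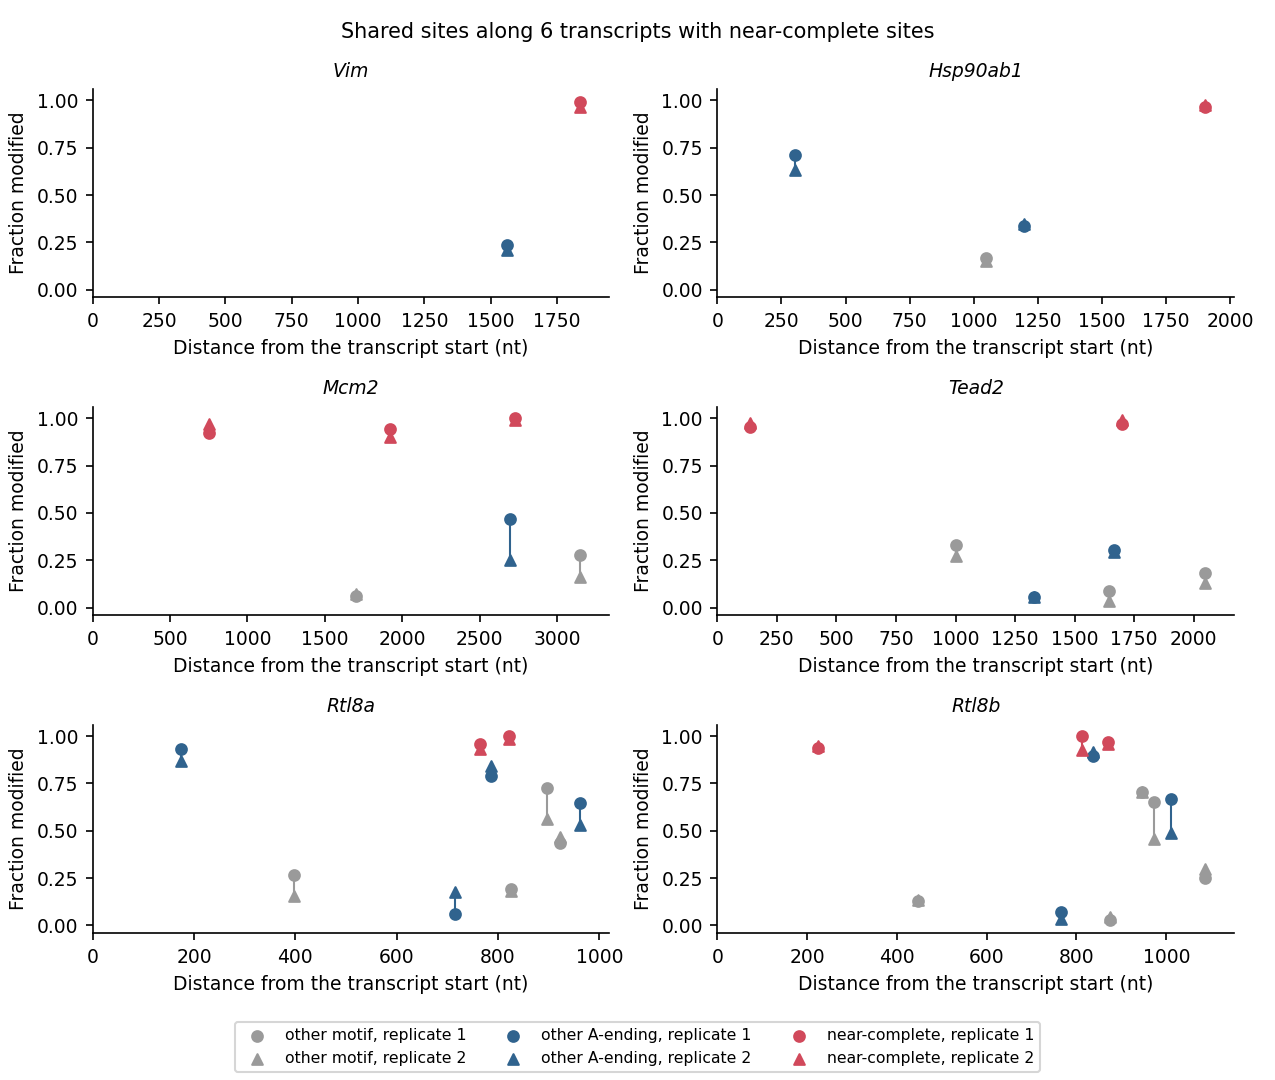
All shared sites of 6 transcripts are plotted by distance from the transcript start (nt) and fraction modified, with circles for replicate 1, triangles for replicate 2 and a line joining both. Near-complete sites (red) and A-ending sites with low fractions (blue) occur on the same transcript, such as Tead2 at 0.967 and 0.058 in replicate 1.

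The genes were grouped into 21 lists by function or name, and the near-complete share of each list's A-ending sites was set beside the 20.4% of all A-ending sites. Together 121 near-complete sites fell in a list and 288 in none, the latter in 241 named genes except for the 2 without a gene name, which could not enter a list. The lists hold 1 to 62 A-ending sites each, so 1 site can move a short list by many percentage points, and a share is a description of these sites. They follow gene symbols and do not hold every gene of a function, so no share stands for a whole function. Nuclear-encoded genes of oxidative phosphorylation had the highest share at 20 or more reads, at 12 of 30 sites (40%) in 9 of 20 genes. With 50 or more reads they had 9 of 20 sites (45%), below the zinc-finger genes (2 of 4) and the DEAD and DEAH box helicases (1 of 2). Atp5b, the beta subunit of ATP synthase, had 0.909 and 0.931 over 382 and 767 reads at position 865. At position 1496 of Atp5a1 the fraction was 0.943 and 0.922 over 296 and 605 reads. Atp5e, the epsilon subunit, had 0.959 and 0.933 at position 360, and Cycs, the electron carrier cytochrome c, had 0.918 and 0.924 at position 562.

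Tubulins and cytoskeleton genes followed with 5 of 13 sites (38.5%), in Vim, the tubulin Tubb6 (position 321, 1 and 0.935), Actr1b of the dynactin complex (1811, 1 and 0.960; 2158, 1 in both) and 1 further gene. With 50 or more reads 1 of 5 remained. The zinc-finger list had 3 of 8 sites (37.5%) but only 2 genes, since Zfp207 was counted on 2 transcripts (position 1452, 1 and 0.970; position 1521, 1 and 0.986). The other was Zfp706 (290, 0.970 and 0.963). Chromatin modifiers had 3 of 10 (30%), namely the deacetylase Hdac3 (1573, 0.926 and 0.984), the remodelling ATPase Smarca5 (1992, 1 in both) and the remodelling subunit Smarcd1 (2865, 1 and 0.963), none with 50 reads in each replicate.

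DNA replication genes had 11 of 38 sites (28.9%), in 8 of 23 genes. Besides Mcm2 these included Rrm1, the large subunit of ribonucleotide reductase (2832, 1 and 0.983 over 76 and 202 reads), Mcm6 of the replicative helicase (2719, 0.946 and 0.961) and the clamp-loader subunit Rfc3 (108, 0.960 and 0.959). Splicing factors had 15 of 62 (24.2%), in 11 of 35 genes, led in depth by the RNA-binding proteins Hnrnpk (2047, 0.954 and 0.930 over 150 and 412 reads; 1850 on another transcript, 0.928 and 0.915) and Hnrnpa1 (896, 0.990 and 0.996), and by Snrpb2 of the U2 particle (236, 0.980 and 0.911). Counting 1 transcript per gene left 11 of 50 splicing sites. The DEAD and DEAH box helicases had 4 of 18 (22.2%), in Ddx17, Ddx19a and Ddx56.

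Several large lists lay at or below the share of all A-ending sites at 20 or more reads. Chaperones and heat shock genes had 12 of 59 (20.3%), each in a different gene. Among them the chaperonin subunit Cct5 had 0.940 and 0.9496 over 185 and 365 reads (589), and the disulfide isomerases Pdia3 and Pdia6 had 0.932 and 0.910 (1849) and 0.932 and 0.965 (1098). Mitochondrial ribosomal proteins had 7 of 35 (20%), such as Mrpl42 (303, 0.966 and 0.991) and Mrps21 (138, 0.989 and 0.925), and 3 of 10 (30%) with 50 or more reads. Cytosolic ribosomal proteins, which hold the deepest sites, had 9 of 47 (19.1%). With 1 transcript per gene they had 9 of 34, above the 20.6% of all A-ending sites at that setting. Aminoacyl-tRNA synthetases had 4 of 22 (18.2%), of which 2 were in the seryl-tRNA synthetase Sars (1733, 0.978 and 0.963; 1320, 1 and 0.987). Ubiquitin conjugation and removal had 6 of 33 (18.2%), such as Ube2m, the NEDD8-conjugating enzyme (794, 0.974 and 0.949). With 50 or more reads it had 3 of 7 (42.9%), above the 21.4% of all A-ending sites at that depth.

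The remaining lists were lower in share at 20 or more reads. The listed genes of nucleolar ribosome biogenesis had 3 of 18 (16.7%), in Ncl, or nucleolin (2395, 0.985 and 0.980), Nip7 and Utp3. With 50 or more reads they had 2 of 7 (28.6%). Glycolysis had 2 of 12 (16.7%), both in the phosphofructokinase Pfkl. Translation factors had 9 of 55 (16.4%), among them Eif3l (1721, 0.967 and 0.948) and Eif4g2 (1866, 0.962 and 0.969; 692, 0.930 and 0.932). Vesicle traffic had 8 of 49 (16.3%), including the small GTPases Rab11b (1588, 0.982 and 1) and Arf6 (982, 0.977 and 0.984) and the sorting nexin Snx5 (1219, 1 and 0.991). Proteasome subunits had 4 of 31 (12.9%), 2 of them in Psmd7. Cell cycle and mitosis genes had 3 of 30 (10%), in the spindle checkpoint gene Bub3 (228, 0.987 and 0.991), the kinase gene Cdk7 (196, 0.952 and 0.912) and Cdkn2aipnl, which entered the list by its name. The near-complete sites of Ccnf, Ccng1 and the kinetochore gene Spc25 were outside this list. Other A-ending sites of such unlisted genes were not counted. Solute carriers had 0 of 7, and m6A writers, erasers and readers 0 of 1.

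**Figure D4:**
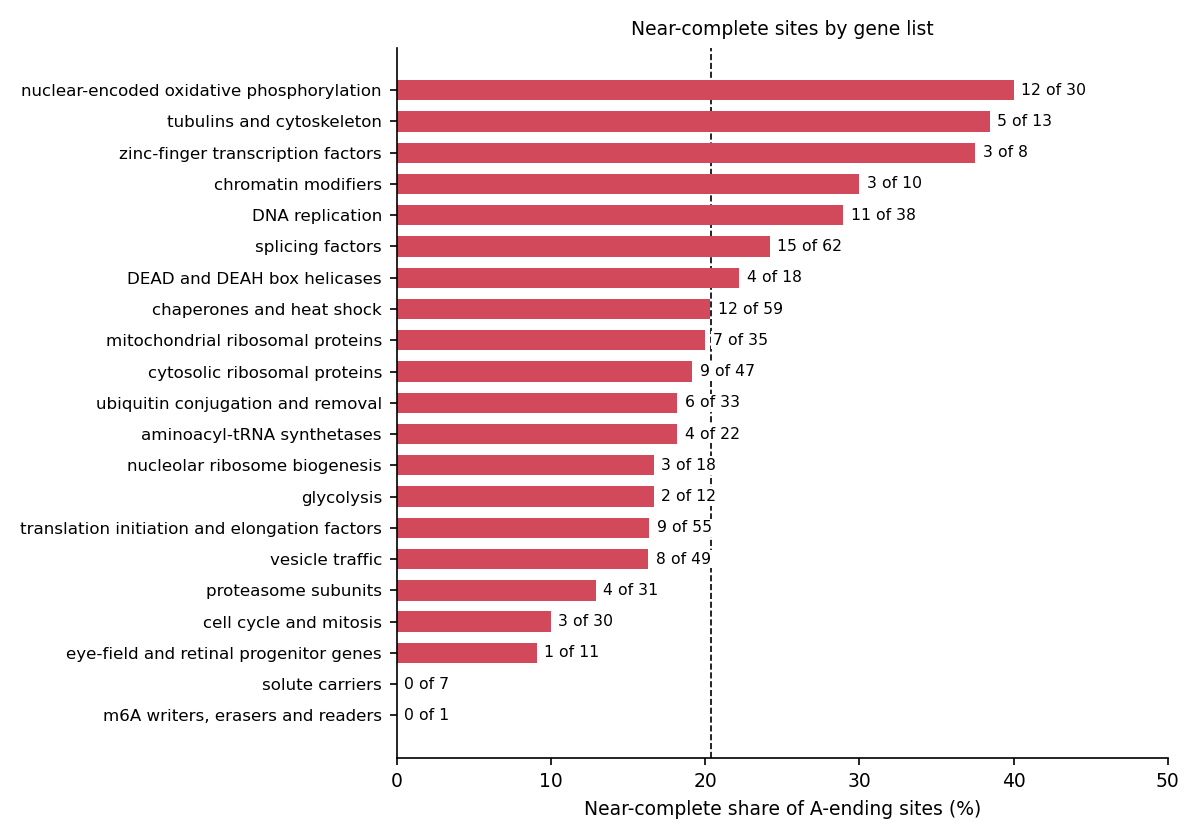
Bars give the near-complete share (%) of the shared A-ending sites in each of 21 gene lists, with the counts beside them, and the dashed line marks the 20.4% of all A-ending sites. Oxidative phosphorylation is at the top with 12 of 30, and solute carriers and m6A genes are at 0.

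Of the eye-field and retinal progenitor genes, which mark the tissue, Rax had the only near-complete site, 1 of 11 A-ending sites in 5 genes (9.09%). Rax encodes the homeodomain factor that the reporter of this line follows. Its near-complete site, at position 138 of ENSMUST00000025396.3, had 0.981 over 60 reads and 0.960 over 78. The other A-ending sites of Rax stood at 0.85 and 0.853 (position 1196) and at 0.3 and 0.25 (1411). In 2 further genes a site passed 0.9 in 1 replicate alone. The LIM homeobox gene Lhx2 had 0.841 and 0.956 at position 1854, and the secreted Wnt antagonist Sfrp2 had 0.928 and 0.883 at position 1005. Hes1, the Notch effector, was low at its A-ending site (1158), at 0.152 and 0.0829 over 153 and 271 reads.

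Position along the transcript, which the rule did not use, was close to that of other A-ending sites. The near-complete sites lay at a median of 1023 nt from the transcript start (interquartile range 565 to 1719) and the others at 1000 nt (545 to 1631), also after weighting the latter to the same coverage classes. In the first 150 nt lay 12 near-complete sites (2.93%) and 39 others (2.45%), and beyond 3000 nt lay 21 (5.13%) and 84 (5.28%). Deep sites were nearer the start in both sets, with medians of 1299 and 1268 nt at 20 to 29 reads and 659 and 764 nt at 100 or more, near-complete sites first. The near-complete site closest to a start was in Lsm7, a subunit of the Lsm ring on U6 RNA and in mRNA decay (position 32, 0.988 and 0.984 over 89 and 141 reads), followed by Sec23b of the COPII coat (85). Apip and Spc25, a subunit of the kinetochore complex NDC80, tied for the next place (89 in both), and at Spc25 the fraction was 1 in both replicates over 28 and 61 reads. The furthest were in Mlec, a carbohydrate-binding protein of the endoplasmic reticulum (5678, 1 and 0.954), Nisch (4615) and Mapk1ip1l (4058). Coding sequence and untranslated regions were not told apart, as no annotation of coding regions along the transcripts was used here.

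By chromosome, near-complete sites were found on 20 of the 21 chromosomes with an A-ending site. Chromosome 12 had the highest share (16 of 52, 30.8%) and, among those with a near-complete site, chromosome 9 the lowest (10 of 101, 9.90%). The deposited gene span was a median of 15301 bases for genes with a near-complete site and 14395 bases for the 855 genes with other A-ending sites alone. Of the 341 genes, 340 matched a RefSeq symbol, and all 340 are protein coding there. Among genes with other A-ending sites 1030 of 1041 matched, of which 1018 are protein coding and 11 pseudogenes.

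Within 100 nt, near-complete and other A-ending sites had a neighbour at similar shares, and the shares differed more within 20, 50 and 500 nt. Another shared site lay that close to 127 near-complete sites (31.1%) and to 476 others (29.9%, or 29.8% after weighting by coverage class). The neighbours at the other 3 motifs had median fractions of 0.222 and 0.240 beside near-complete sites (113 pairs) and 0.265 and 0.25 beside the others (379 pairs). Within 50 nt the order was the reverse, at 0.314 and 0.333 (62 pairs) and 0.267 and 0.25 (189 pairs), as it was within 20 nt, at 0.286 and 0.333 (23 pairs) and 0.260 and 0.241 (68 pairs). The direction thus depended on the window, and with 2 replicates an exact paired permutation test cannot give less than p = 0.5. Neighbours that were A-ending themselves had medians of 0.757 and 0.739 (72 pairs) and 0.687 and 0.684 (232 pairs), and 25% and 23.3% of them were near-complete. Within 20 nt these medians were in the reverse order, at 0.706 and 0.667 (13 pairs) and 0.764 and 0.747 (33 pairs). The shares with a neighbour were 72.4% and 69.4% within 500 nt and 83 of 409 (20.3%) and 260 of 1592 (16.3%) within 50 nt. Within 20 nt they were 33 of 409 (8.07%) and 98 of 1592 (6.16%).

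Inside 20 nt the near-complete share differed with the spacing, a pattern that was looked for after the values were seen. Of 18 A-ending sites with another shared site 4 to 6 nt downstream, 17 were near-complete (94.4%), with medians of 0.963 and 0.970. Without such a neighbour, 392 of 1983 were near-complete (19.8%), with medians of 0.687 and 0.667. When the downstream site was 7 to 12 nt away the count was 5 of 32 (15.6%), and at 13 to 20 nt it was 4 of 30 (13.3%). Where the other site lay upstream by 4 to 6 nt it was 2 of 7 (28.6%), and the 2 were the second sites of the Rpl7a and Stard7 pairs. The fraction at the second site was lower than at the first in both replicates in all 18 pairs, by a median of 0.428 and 0.405. The second sites had medians of 0.511 and 0.557, and 2 were near-complete. Most were AGACT or GGACC, whose medians over all shared sites were 0.267 and 0.25, and 0.217 and 0.227. With 17 first sites at 0.9 or above, a fall was largely fixed in advance, and nothing is read from it.

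**Figure D5:**
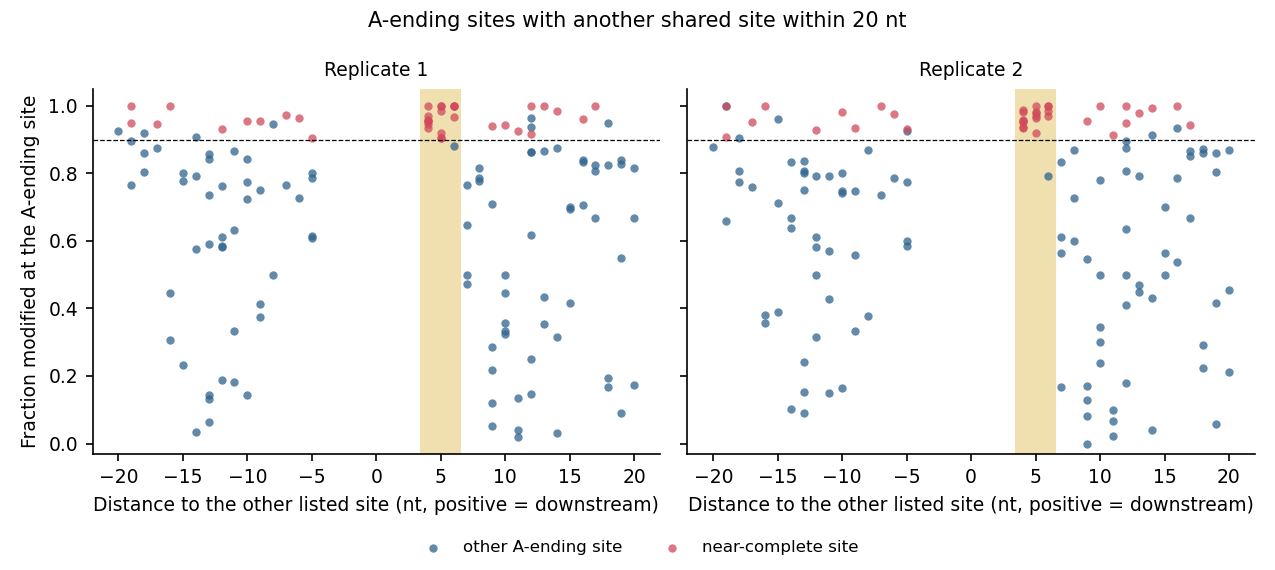
Each point is an A-ending site paired with another shared site within 20 nt, placed by the distance to that site (nt, positive where it lies downstream) and the fraction modified in replicate 1 (left) or 2 (right), near-complete sites in red. In the shaded band, 4 to 6 nt downstream, 17 of 18 sites lie above the dashed line at 0.9 in both replicates.

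The 18 first sites fell into the arrangements printed above. GGACAgact, in which the final A of the first motif is the first base of the second, was found 7 times and was near-complete each time, in Mars1, Ddx56, Rtl8b, Armc10, Rtl8a, Cdkn2aipnl and Ssbp3, at 0.936 to 1 in replicate 1 and 0.936 to 0.987 in replicate 2. Its second site, an AGACT, ranged from 0.0312 in Rtl8b to 0.905 in Armc10 in replicate 1. The direct repeat GGACAggaca was near-complete at its first site 4 of 4 times, in Rpl7a, Atad3a, Ublcp1 and Arpc3, and GGACAggacc 2 of 2 times, in Idh3g and Abcf2. With 1 base between the motifs, 4 of 5 first sites were near-complete: Stard7, Sf3b1 and Zfp207 on 2 transcripts. Glyr1, at 0.880 and 0.793, was the exception. These sites stand in 17 genes, Zfp207 is counted on 2 isoforms, and Rtl8a and Rtl8b are close copies, so the 18 are not independent.

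The same spacing was then read at A-ending positions outside the set that the rule used, which had fewer than 20 reads in at least 1 replicate or were listed in 1 alone. In replicate 1, 32 of 65 such positions with a listed site 4 to 6 nt downstream were at 0.9 or above (49.2%), against 2098 of 6886 without one (30.5%). In replicate 2 the counts were 84 of 139 (60.4%) and 4239 of 14960 (28.3%). The difference was thus present in both replicates and smaller than among the 2001 shared sites. It was least at 5 to 9 reads in replicate 1 (39.4% and 33.3%), and in replicate 2 it was present at 5 to 9 reads (70.9% and 31.8%), 10 to 19 reads (52.2% and 27.2%) and 20 or more (21 of 38, 55.3%, and 23.9%). In genes with no near-complete site the shares with the downstream neighbour were 48.4% and 60.2% in replicates 1 and 2, against 30.3% and 28.2% without it. Many positions are listed in both replicates, so these are not independent sets.

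The other motifs with a shared site 4 to 6 nt downstream also had higher medians than those without, on few sites. For 7 GGACT sites the medians were 0.762 and 0.697, against 0.265 and 0.245, and 1 was at 0.9 or above in both. For 3 GGACC sites they were 0.571 and 0.598, against 0.216 and 0.226, and for 2 AGACT sites 0.598 and 0.547, against 0.266 and 0.25. How the modification caller treats signals from motifs this close together is not given in the sources used here, and its part in the result was not tested.

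Pairs within 20 nt showed how far a near-complete site and its neighbour can differ. The gap was widest in Rtl8b, a gag-like gene derived from a retrotransposon, where position 871 was at 0.971 and 0.960 and position 875 at 0.0312 and 0.0441, a difference of 0.928 ± 0.0175 (SD, n = 2). Hnrnpdl had 0.985 and 0.994 at position 1231 and 0.117 and 0.0988 at an AGACT 14 nt downstream. Sf3b1, the core subunit of the SF3b splicing complex, had 1 in both replicates at 3652 and 0.154 and 0.100 at a GGACC 6 nt downstream. In Chtf8 the neighbour was a GGACT 12 nt upstream of position 2679 (0.930 and 0.929), at 0.0357 and 0.133.

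Between sites of the same motif the widest gap was in Tmem223, where GGACA at position 547 had 0.942 and 1 over 56 and 84 reads and GGACA at position 557 had 0.143 and 0.164, a difference of 0.818 ± 0.0260 (SD, n = 2). At the other end, Stard7, a lipid transfer protein, had 0.968 and 1 at position 1543 and 0.963 and 0.976 at 1549. Armc10 had 0.958 and 0.956 at 1409 and 0.905 and 0.887 at the AGACT that overlaps it by 1 base.

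Rtl8a and Rtl8b, neighbouring genes on chromosome X (52644455 to 52645649 and 52671144 to 52672375), had A-ending sites at matching positions. Each had 6 shared A-ending sites, and all 6 of Rtl8a matched those of Rtl8b at an offset of 49 nt. Rtl8b had near-complete sites at 224 (0.938 and 0.949), 813 (1 and 0.929) and 871. Rtl8a had them at 764 (0.957 and 0.932) and 822 (1 and 0.987), and its first site, at 175, was at 0.933 and 0.870. Both had a low site between, at 765 of Rtl8b (0.0714 and 0.0317) and 716 of Rtl8a (0.0588 and 0.177). Reads may have been shared between such close copies, so these 5 near-complete sites are uncertain as separate observations.

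In 17 genes near-complete sites were listed on more than 1 transcript: Hnrnpk on 3, and 16 others, among them Eif2s2, Hnrnpf, Hnrnpl, Ptbp1, Raly and Zfp207, on 2. Such sites can be the same base of the gene under several transcript names and share reads or sequence, so 409 sites stand for fewer separate positions in the genome.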

How the data were processed

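The authors deposited, for each library, tables with a fraction modified (a fraction from 0 to 1) and a coverage (a whole-number count of reads) for each listed transcript position, none under 5 reads. Replicate 1 listed 26441 positions and replicate 2 listed 50099, with median coverages of 10 and 12 reads. The denominator of the fraction, the base caller, the aligner and the modification caller are not given in the sources used here, so no intervals were derived from read counts. The submitters' processing notes name mm10, but 3.29% of 1185 gene starts lay within 1000 bases of the RefSeq GRCm38.p6 start, so deposited coordinates were not combined with that build.

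The plus tables were joined on transcript version and listed end. Other A-ending sites were compared within classes of the lower coverage (20 to 29, 30 to 49, 50 to 99, 100 or more) or weighted to the classes of the near-complete sites. Sites are not replicates, so no test across them was made. Neighbours are other shared sites on the same transcript. The members and gene lists were chosen with earlier results of these data known, and lists follow gene symbols and their prefixes. Named are the 10 deepest sites, up to 10 genes with several sites on 1 transcript, up to 4 sites per list, 5 on each side of the minimum, the widest 5 and narrowest 3 pairs within 20 nt, the 3 nearest to and furthest from the start, and the 5 deepest with fraction 1. Some items that this rule names are not reported here. Scripts (Python 3.11.15, pandas 2.3.3, numpy 2.4.6, matplotlib 3.10.9) were tested on simulated tables. Alternatives changed the minimums, the neighbour window, the isoforms counted and the replicates used.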

Additional observations from a re-analysis of the deposited data

How the results depend on the processing

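Of 104 alternative values, 62 moved by less than the spread between replicates or by no more than 1.5 times for a count, and 42 moved by more. All are counts, shares or medians that cannot change sign. With 10 reads in each replicate there were 825 near-complete sites in 671 genes, with 50 reads 153 in 136, and with a fraction of 0.95 there were 210 in 188. The choice in 1 replicate alone gave 600 to 1395 sites in 480 to 1072 genes. The share of A-ending sites was 28.2% at a fraction of 0.85, 10.5% at 0.95, 24.8% with the mean of both replicates at 0.9 or above, and 24.2% to 25.8% in 1 replicate alone. The median position was 1259 nt with 10 reads, 766 nt with 50, and 982 to 1298 nt in 1 replicate alone. The share with a neighbour within 100 nt was 20.9% with 50 reads, 29.4% at 0.85, 32.4% at 0.95, 30.04% with the mean fraction, 32.0% with 1 transcript per gene and 35.4% to 36.3% in 1 replicate alone. A window of 50 nt gave 20.3% (16.3% for other A-ending sites) and one of 200 nt gave 47.7%. The median fraction of neighbours at other motifs, 0.231 as the mean over replicates, was 0.139 with 50 reads, 0.324 within 50 nt (0.258 beside other A-ending sites, against 0.257 within 100 nt) and 0.222 to 0.278 in 1 replicate alone. For sites with another 4 to 6 nt downstream, whose alternatives were chosen after seeing the data, the near-complete share was 71.1% (27 of 38) with 10 reads, 61.1% (11 of 18) at 0.95, and 67.3% (37 of 55) to 95.8% (23 of 24) in 1 replicate alone. With 50 reads it was 100% on 3 sites, and at 4 or 5 nt it was 100% on 13. The cause of these shifts was not tested, beyond the fewer or more sites that each minimum admits. Of 42 alternatives for the gene lists, judged by the number of near-complete sites alone, 11 moved, all of them with 50 reads. Shares of lists were not judged in this way. A share can shift while its count does not, as for cytosolic ribosomal proteins (9 of 47, and 9 of 34 with 1 transcript per gene). No paired analysis was possible because the samples form 1 group. Whether listed positions are all those examined is not stated, which limits every share to listed sites.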

Other observations

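The minus tables, whose strand meaning is not stated, held 4 A-ending positions listed in both replicates. Of these, 1 met the near-complete rule, position 1879 of Slc38a6, with fractions of 0.960 over 33 reads and 0.969 over 81.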
